A study of Homo sapiens with 6 samples.

Results

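The genes described here are 39 genes of autophagy and the lysosome, taken by name from a count table of 26490 gene symbols, and all 39 were found in it. They divide into 23 autophagy genes, which run from the transcription factors that control the pathway to the receptors that select its cargo, and 16 lysosomal genes, which encode membrane proteins, cathepsins, glycosidases and parts of the proton pump. They were chosen by name and not by a threshold on any measured value. All 39 passed the filter on low counts, so none is missing from the tests.

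Autophagy encloses cytoplasm, damaged organelles or protein aggregates in a double membrane, the autophagosome, which fuses with the lysosome, where acid hydrolases break the contents down. The ULK1 kinase complex starts the process, the VPS34 lipid kinase complex marks the membrane, and a conjugation system attaches proteins of the ATG8 family to it. Insulin and IGF signalling restrains autophagy in many cells: mTORC1 phosphorylates ULK1 and keeps the transcription factors TFEB, TFE3 and MITF in the cytoplasm, and AKT keeps FOXO factors there. In the nucleus, TFEB and its relatives bind a palindromic E-box called the CLEAR element in the promoters of lysosomal genes. That control acts largely through the location and phosphorylation of proteins, which RNA levels do not show.

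RNA-seq was done on SW403, an established human colon adenocarcinoma cell line, in a control group (genotype label WT, column code NS) and a group with knockdown of IRS2 (column code IRS2KO), 3 libraries each. IRS2 is the insulin receptor substrate 2 adaptor, which carries signals from the insulin and IGF1 receptors to PI3K, and the series asks about its role in brain metastasis of colorectal cancer. Both groups were grown for 24 h after seeding in DMEM with 10% serum, with no drug or other agent. The labels call the libraries biological replicates of a triplicate seeding. They do not say how IRS2 was lowered, what the control cells received, or whether either group was 1 clone, so p-values measure the spread between these cultures only.

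Libraries held 11816973 to 12585013 counts in control and 14329348 to 18114656 in knockdown, and members took 0.318% to 0.320% of the counts in control and 0.336% in each knockdown library. IRS2 itself stood at 32.4, 34.8 and 32.2 CPM (the count as a share of the library total, in parts per 1e6) in control and at 13.0, 12.3 and 11.9 CPM in knockdown, a 2.62-fold fall (edgeR adjusted p = 3.12e-11). Of 12 colon epithelial markers, KRT8, KRT18, KRT19, EPCAM, CDX2 and VIL1 were expressed, whereas KRT20, CDX1 and CEACAM5 had no count in any library and CDH1, CDH17 and LGALS4 stayed under the filter on low counts. The 12 summed to 2537 to 2637 CPM in control and 2364 to 2456 CPM in knockdown, with CDX2 higher and EPCAM and KRT19 lower. Most of this sum was KRT8 and KRT18, with control means of 1106 and 1131 CPM, so it says little of the other markers. The summed level of the 6 leukocyte markers was 0.558 to 1.35 CPM over all libraries and that of the 4 endothelial markers 0.338 to 0.876 CPM. Fibroblast markers summed to 8.97 to 27.6 CPM in control and 5.80 to 7.29 CPM in knockdown. Of the 6, 3 were tested and 2, COL1A1 and COL3A1, were lower. The highest sum was that of control replicate 1, with 193 COL1A1 counts against 72 and 67 in the other controls. COL3A1, at 3 to 34 counts, had overlapping groups. The part of these marker differences in the results was not tested.

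Per length, the members covered a wide range of levels, which the plot of levels per kilobase shows for every library. CTSZ, a lysosomal carboxypeptidase, had the highest level in control, 169 CPM per kb of canonical transcript, followed by SQSTM1 at 137 and CTSA at 103. At the other end were ULK2 at 0.582, PIK3C3 at 1.52 and TFEB at 1.89 CPM per kb. In knockdown the order at the top was exchanged: SQSTM1 reached 195 CPM per kb and CTSZ stood at 172. Of the CTSZ exon length, 31.7% is shared with NELFCD on the opposite strand, which held 2485 to 3745 counts per library. The part of shared reads in the CTSZ level was not tested. Of the MiT/TFE factors, TFE3 was the abundant one, at 35.5 CPM per kb in control against 3.61 for MITF and 1.89 for TFEB.

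**Figure D1:**
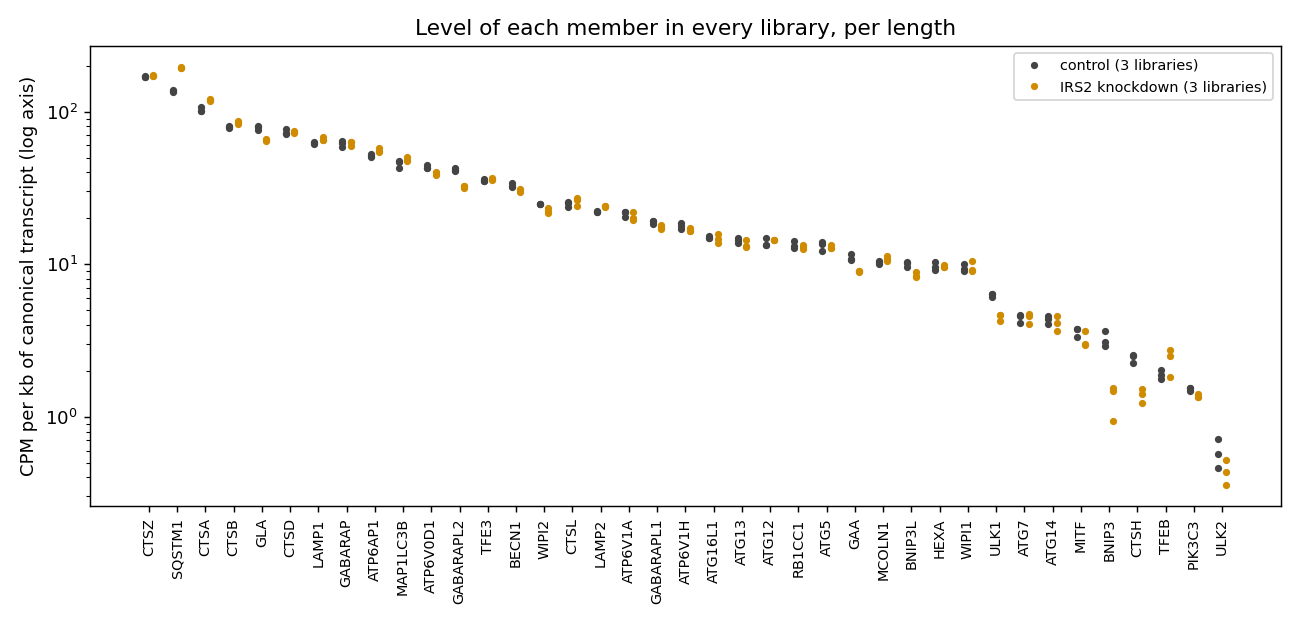
Level of each of the 39 members in every library, as CPM per kb of canonical transcript on a log axis, ordered by the control mean; dark points are the 3 control and orange points the 3 IRS2 knockdown libraries. SQSTM1 moved from 137 to 195 and GLA from 78.7 to 65.1, while CTSZ, at 169 and 172, had overlapping groups.

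The knockdown changed single genes of the pathway in both directions and did not move the set as a block. Of the 39 members, 15 were called at an edgeR adjusted p under 0.05, 7 higher and 8 lower in knockdown. That is 38.5% of the members, the same as the 38.5% called over all 13832 genes tested, of which 19.3% were called higher and 19.2% lower. The CPM values of the groups did not overlap for 18 members, 6 above and 12 below control, against 48.4% of all genes tested. Over all genes, 2710 lay above and 3978 below, although 2676 were called higher and 2653 lower. CPM is a share of the library total without TMM factors, and its separations lean downward in knockdown. In bulk RNA, fewer cells that express a gene and less RNA per cell cannot be told apart. The median absolute log2 fold change was 0.11 over the members and 0.14 over all genes.

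The autophagy and lysosomal genes differed in their counts, although no test of this difference was made. Of the 23 autophagy genes, 2 rose and 5 fell (8.7% and 21.7%, against 19.3% and 19.2% of all genes tested). Their median log2 fold change was -0.05. Of the 16 lysosomal genes, 5 rose and 3 fell (31.2% and 18.8%), with a median of 0.04. With library size alone in place of TMM, the medians were -0.0811 for autophagy and 0.0113 for lysosomal genes. Between replicates, the median log2 CPM had an SD of 0.0536 for autophagy and 0.0439 for lysosomal genes, about the size of the medians from the main fit. The median over all genes tested was -0.0039. Most changes were small: 2 of the 15 called members, BNIP3 and CTSH, differed by more than 1.5-fold, and both were expressed at about 5 CPM in control. The plot of log2 fold changes shows SQSTM1 and BNIP3 at its extremes.

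**Figure D2:**
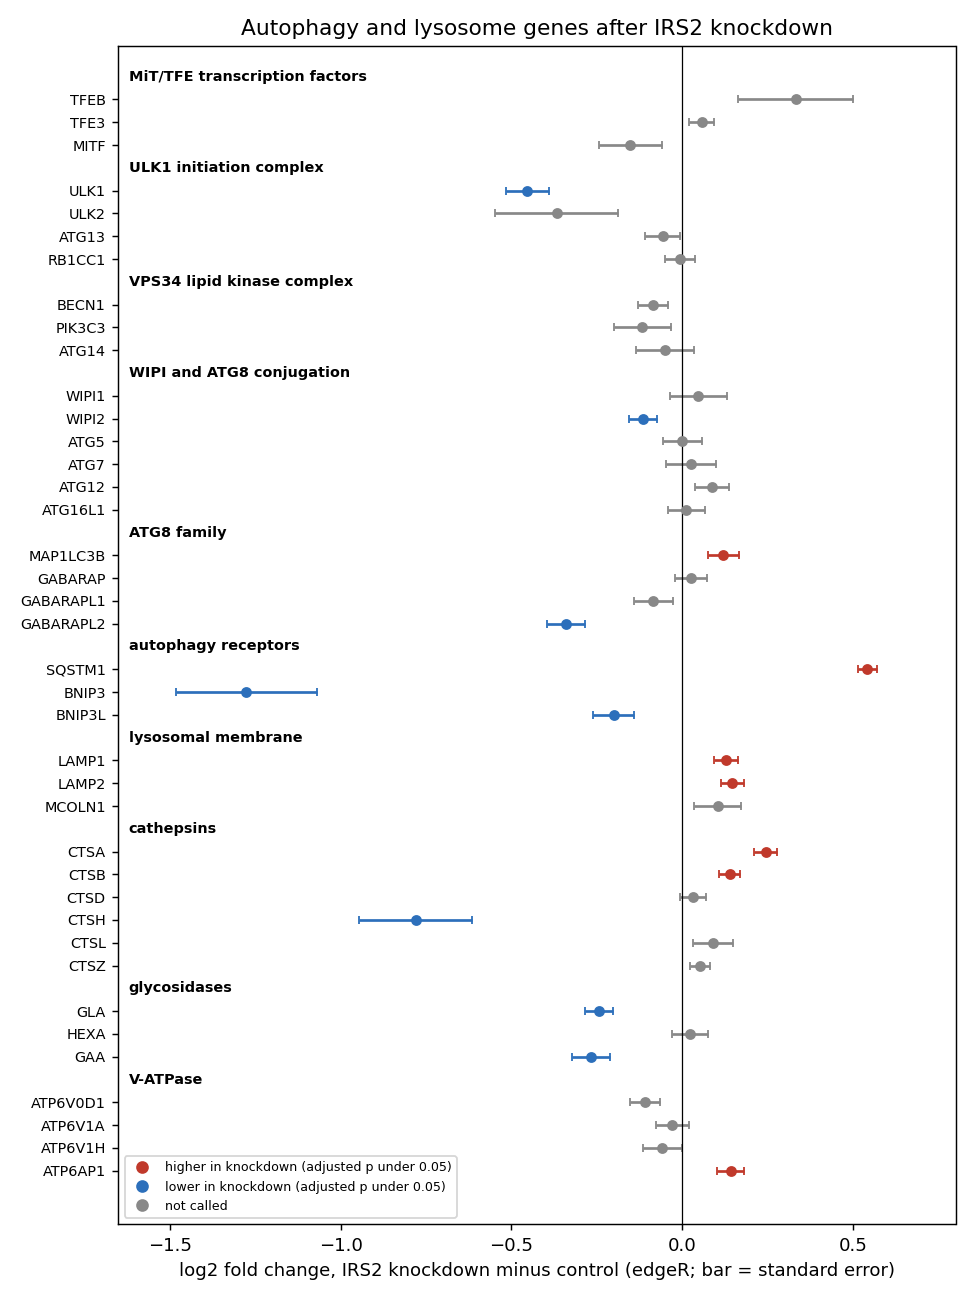
Log2 fold change (IRS2 knockdown minus control, edgeR) of each member, grouped by role, with its standard error as the bar; red marks the 7 members called higher, blue the 8 called lower and grey the 24 not called. SQSTM1 lies at 0.54 and BNIP3 at -1.28.

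None of the MiT/TFE factors, which switch on lysosomal and autophagy genes, passed the threshold. TFEB stood at 4.13, 4.38 and 4.74 CPM in control and at 6.35, 5.86 and 4.25 CPM in knockdown. Replicates 1 and 2 of the knockdown lay above every control library, and replicate 3 lay among them (log2 fold change 0.33 ± 0.17 SE, edgeR adjusted p = 0.129). Without knockdown replicate 3, TFEB was called higher, with a log2 fold change of 0.49 and an edgeR adjusted p of 0.0222. At 52 to 56 control counts and 77 to 100 knockdown counts, its fold change has a wide error. TFE3 stood at 116, 116 and 118 CPM in control and at 121, 117 and 119 CPM in knockdown, so its groups overlapped within a few percent (edgeR adjusted p = 0.233). MITF had 15.9, 18.1 and 18.0 CPM in control and 17.4, 14.2 and 14.4 CPM in knockdown, with 1 knockdown library inside the control range (edgeR adjusted p = 0.209).

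ULK1, the kinase that starts autophagosome formation, fell. It was at 33.8, 32.6 and 34.0 CPM in control and at 24.6, 22.6 and 24.6 CPM in knockdown. Each knockdown library lay well under each control library, and the means were 33.4 ± 0.780 and 23.9 ± 1.14 CPM (SD, n = 3 each). This was a 1.37-fold decrease (log2 fold change -0.45 ± 0.06 SE, edgeR adjusted p = 1.05e-05). ULK1 lies on chromosome 12 (GRCh37, 132379167 to 132407695, plus strand), with 28 exons in its canonical transcript. Its paralogue ULK2 was low, at 4.22 to 6.52 CPM in control and 3.28 to 4.75 CPM in knockdown, and did not pass (log2 fold change -0.37 ± 0.18 SE, edgeR adjusted p = 0.120). The other members in the complex, the scaffold ATG13 and RB1CC1 (also called FIP200), had log2 fold changes of -0.06 and -0.01 and overlapping groups. Among these members, the test therefore called the kinase ULK1 alone. ATG101, a further subunit of the complex that is not a member, was called higher (log2 fold change 0.21 ± 0.06 SE, edgeR adjusted p = 0.00638).

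Of the 3 members in the VPS34 complex, which makes the lipid PI3P on the forming membrane, none passed the threshold. Its regulatory subunit PIK3R4, which is not a member, was called lower (log2 fold change -0.16 ± 0.05 SE, edgeR adjusted p = 0.0264). The scaffold BECN1 was at 67.7 to 71.4 CPM in control and 62.3 to 65.6 CPM in knockdown, and the catalytic subunit PIK3C3 at 13.9 to 14.5 and 12.6 to 13.4 CPM. Both had lower values in every knockdown library, by log2 fold changes of -0.08 and -0.12 that were not called (edgeR adjusted p = 0.145 and 0.300). ATG14, which directs the complex to autophagy, had a log2 fold change of -0.05 with overlapping groups.

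WIPI2, the PI3P reader that recruits the conjugation machinery, was called lower by a small margin. It stood at 110.1, 111 and 111 CPM in control and at 96.3, 99.3 and 104 CPM in knockdown, without overlap (log2 fold change -0.11 ± 0.04 SE, edgeR adjusted p = 0.0320). This call was lost in 8 of 14 other fits, among them those without each control replicate or without knockdown replicate 1 or 2, where the edgeR adjusted p was 0.0537 to 0.149. WIPI1, its relative, had 17.2 to 19.2 CPM in control and 17.2 to 19.98 CPM in knockdown. Among the members, the conjugation genes ATG7, ATG5, ATG12 and ATG16L1 did not pass. ATG7, the activating enzyme, and ATG5, ATG12 and ATG16L1, which form the complex that attaches ATG8 proteins to lipid, had log2 fold changes between -0.0000250 (ATG5) and 0.09 (ATG12), and ATG12 had the lowest edgeR adjusted p of these genes, 0.189.

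The ATG8 family, the ubiquitin-like proteins that coat the autophagosome, split. GABARAPL2 fell from 41.7, 40.1 and 39.5 CPM to 30.8, 31.5 and 31.5 CPM. All 3 knockdown libraries were within 1 CPM of each other and under all controls, a 1.27-fold decrease (log2 fold change -0.34 ± 0.05 SE, edgeR adjusted p = 6.17e-05). GABARAPL2 lies on chromosome 16 (GRCh37, 75600273 to 75611779, plus strand) and has 4 exons. MAP1LC3B, the gene of the common autophagosome marker LC3B, stood at 91.1, 100.2 and 102 CPM in control and at 108, 101 and 103 CPM in knockdown. Its groups overlapped, and the call of a rise (log2 fold change 0.12 ± 0.05 SE, edgeR adjusted p = 0.0436) was lost in 8 of 14 other fits, among them those without control replicate 1 (log2 fold change 0.07) or without any 1 of the knockdown replicates. MAP1LC3B2, a near-identical copy, held 44 to 133 counts per library, and how shared reads were divided is not given in the sources used here. It also shares 60 exon bases with FBXO31 on the other strand, which was called higher (log2 fold change 0.29). GABARAP and GABARAPL1 had log2 fold changes of 0.03 and -0.08 and were not called.

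The makeup of the ATG8 family moved with GABARAPL2. Per length, GABARAPL2 made up 24.0% to 25.7% of the 4 family members' summed level in control and 19.9% to 20.2% in knockdown. The summed level of the family was 251.41 to 261.99 CPM in control and 248.28 to 251.23 CPM in knockdown, so the groups nearly touched. These sums are shares of the library total and were not scaled by TMM factors. Such scaling lowered the sums of all autophagy members in control and raised them in knockdown, so this narrow gap does not set the groups apart.

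All 3 cargo receptors were called, in opposite directions. SQSTM1, which encodes p62, a receptor for ubiquitinated cargo that is itself degraded by autophagy, rose from 394, 383 and 388 CPM to 551, 551 and 559 CPM. The lowest knockdown library exceeded the highest control library by a wide margin, and the means were 388 ± 5.22 and 554 ± 4.28 CPM (SD, n = 3 each). The rise was 1.46-fold (log2 fold change 0.54 ± 0.03 SE, edgeR adjusted p = 3.98e-11), and SQSTM1 had the smallest p-value of the 39 members. SQSTM1 lies on chromosome 5 (GRCh37, 179233398 to 179265078, plus strand), with 8 exons in its canonical transcript. In the GENCODE annotation, 14 of the 39 members share exon bases with another gene of the table, and among the called ones these are SQSTM1, MAP1LC3B, CTSA, GLA and BNIP3L. Of the SQSTM1 exon length, 21.0% is shared with MRNIP and 1.39% with MGAT4B, both on the opposite strand. MRNIP held 496 to 884 counts per library against 4583 to 10120 for SQSTM1, and had a log2 fold change of 0.22. MGAT4B, at 1738 to 3773 counts, had one of 0.53. The strand setting of the counting is not given in the sources used here, and the part of shared reads in the rise was not tested.

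The mitophagy receptors BNIP3 and BNIP3L moved the other way. BNIP3, a mitochondrial outer membrane protein induced by hypoxia, had 4.77, 5.65 and 4.49 CPM in control and 2.37, 2.29 and 1.44 CPM in knockdown. These levels rest on 53 to 71 counts in control and 26 to 39 counts in knockdown libraries. The groups did not overlap, and the fall was 2.42-fold (log2 fold change -1.28 ± 0.21 SE, edgeR adjusted p = 6.70e-05). BNIP3 lies on chromosome 10 (GRCh37, 133781188 to 133795471, minus strand). Its paralogue BNIP3L, also called NIX, fell less, from 35.4, 33.2 and 35.0 CPM to 28.3, 29.0 and 30.9 CPM (log2 fold change -0.20 ± 0.06 SE, edgeR adjusted p = 0.0126). That call was lost without knockdown replicate 1 (edgeR adjusted p = 0.0530) and with the Wald test of DESeq2 (adjusted p = 0.0741). Its exon neighbour PNMA2, with 86 to 148 counts, was not called.

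**Figure D3:**
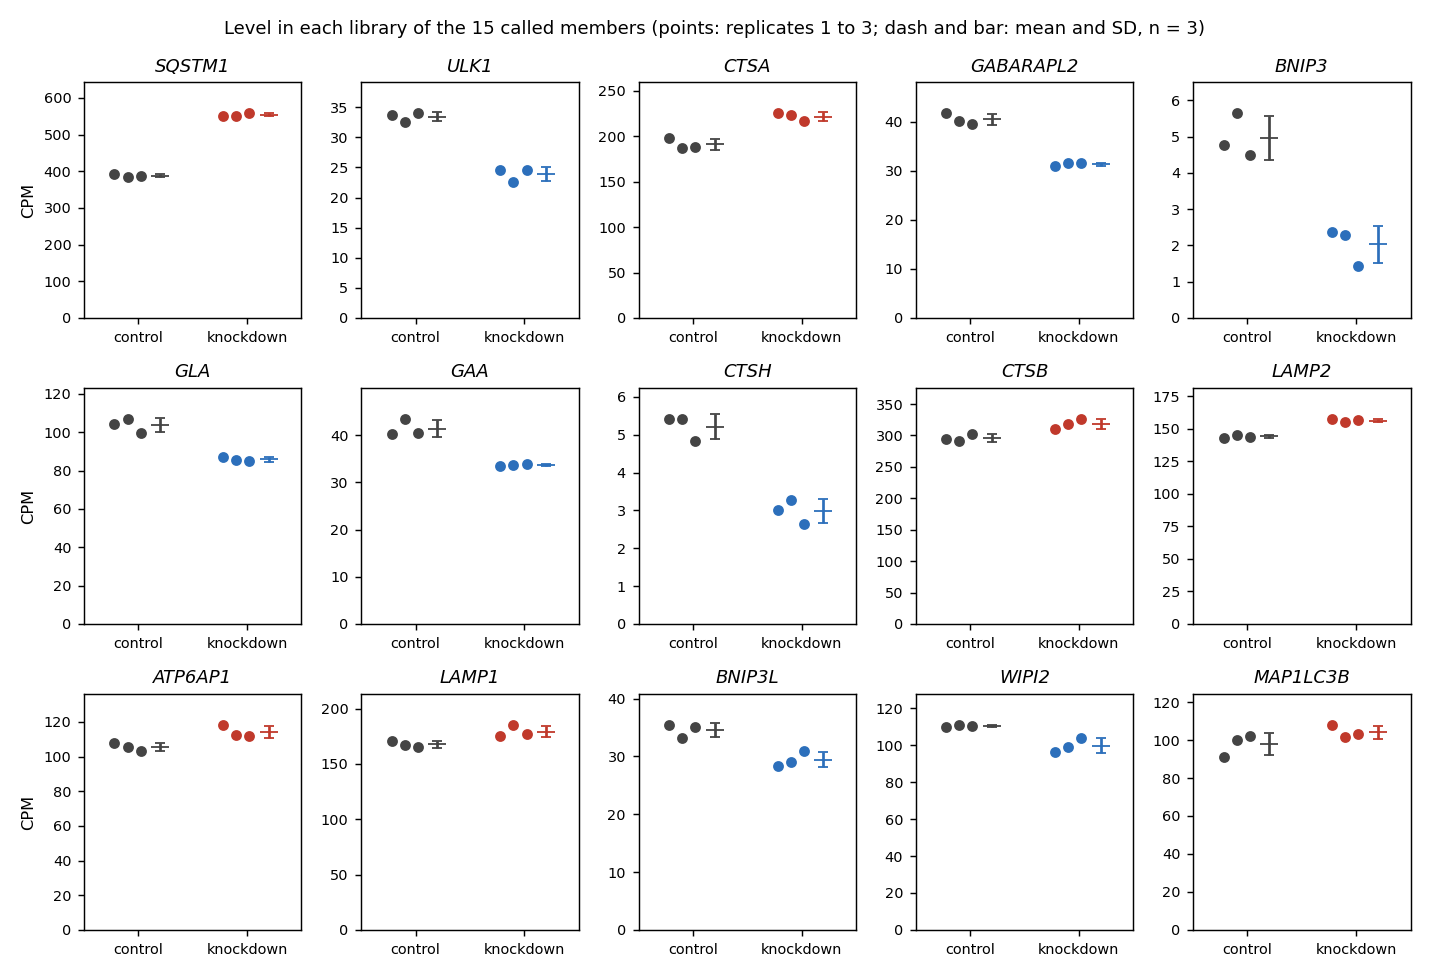
CPM of the 15 called members in each library, ordered by p-value; points are replicates 1 to 3 of control (dark) and IRS2 knockdown (red where higher, blue where lower), and the dash with its bar is the mean with SD (n = 3), on axes that start at 0. SQSTM1 rose from a mean of 388 to 554, and MAP1LC3B, the last of the 15, is the one whose groups overlap.

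In sum, autophagy RNA was higher in knockdown, and this came from SQSTM1. The summed level of the 23 genes was 1409 to 1425 CPM in control and 1528 to 1536 CPM in knockdown. SQSTM1 made up 27.2% to 27.9% of that sum in control and 35.9% to 36.4% in knockdown. Without SQSTM1 the sum was 1015 to 1037 CPM in control and 977 to 984 CPM in knockdown, so that the remaining genes together lay lower in every knockdown library. With CPM scaled by TMM factors, a scaling added after the data were seen, the sums without SQSTM1 were 1004 to 1023 in control and 986 to 993 in knockdown. The plot of summed levels shows the 2 components apart.

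**Figure D4:**
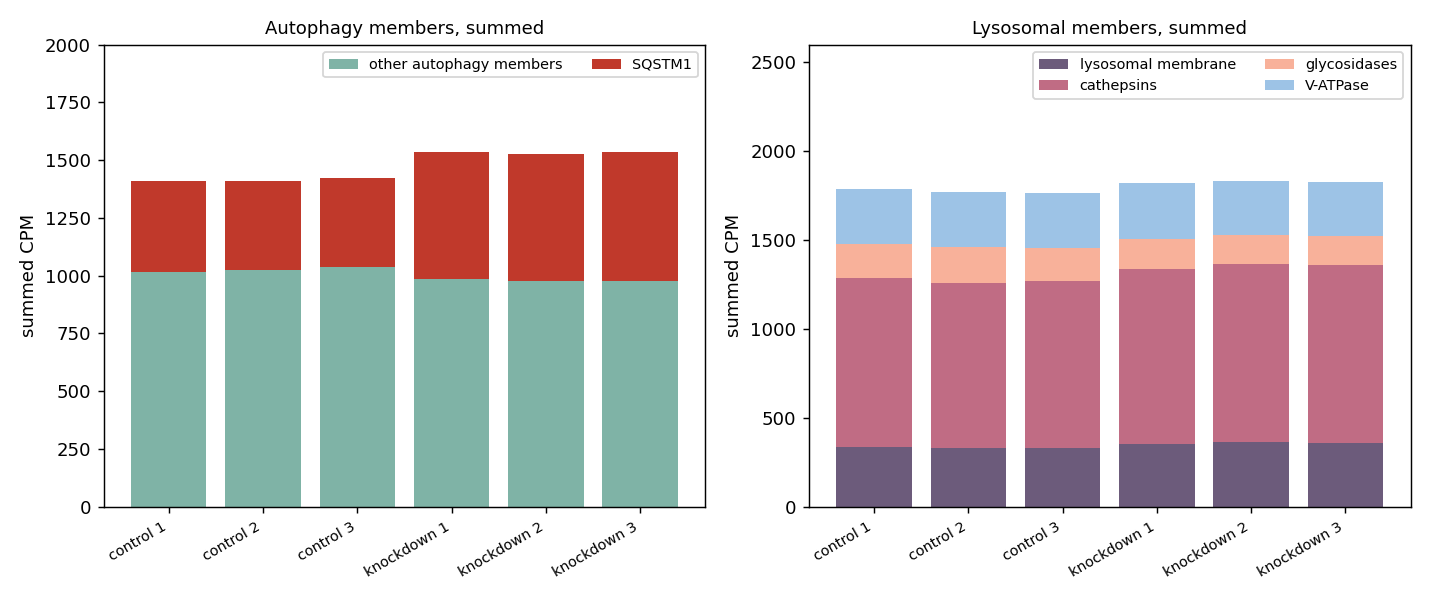
Summed CPM per library, left for the autophagy members with SQSTM1 (red) on top of the others (green), right for the lysosomal members by role. The SQSTM1 segment grew from 383 to 394 CPM in control to 551 to 559 CPM in knockdown while the segment under it went from 1015 to 1037 down to 977 to 984 CPM, and the lysosomal total went from 1767 to 1786 up to 1822 to 1834 CPM.

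Some of the lysosomal promoters carry the element by which TFEB and its relatives are known to act. These are shown here because genes that share it moved in different directions. Promoter windows of 300 bases, from 250 before to 50 after the start, were found for 32 members in the RefSeq table (GRCh38.p14). The CLEAR core TCACGTGA, which is its own reverse complement and contains the E-box CACGTG, was searched in them. It was present in 5 of 11 lysosomal and 0 of 21 autophagy members with a window. Counted by window and not by gene, it was in 0.980% of all 35116 windows. By gene, 240 tested genes held it and 10578 with a window lacked it. The members were chosen by name as pathway genes, and these shares were not tested against each other. Of the lysosomal genes outside the members, 5 of 50 with a window held it. The 100 bases before the start of each of the 5 members follow, 5′ to 3′ on the gene's strand, with TCACGTGA in capitals.
LAMP1, chr13:113297139-113297238, plus strand: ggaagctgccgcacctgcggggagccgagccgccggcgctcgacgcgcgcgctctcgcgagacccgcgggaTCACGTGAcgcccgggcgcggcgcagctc
CTSA, chr20:45891235-45891334, plus strand: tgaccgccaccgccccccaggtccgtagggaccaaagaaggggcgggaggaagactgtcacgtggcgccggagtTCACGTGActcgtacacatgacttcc
GAA, chr17:80101481-80101580, plus strand: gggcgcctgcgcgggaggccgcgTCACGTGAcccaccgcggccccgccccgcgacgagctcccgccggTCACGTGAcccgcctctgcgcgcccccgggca
MCOLN1, chr19:7522524-7522623, plus strand: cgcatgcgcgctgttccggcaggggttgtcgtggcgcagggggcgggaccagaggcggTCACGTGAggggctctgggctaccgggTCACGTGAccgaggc
ATP6V0D1, chr16:67481158-67481257, minus strand: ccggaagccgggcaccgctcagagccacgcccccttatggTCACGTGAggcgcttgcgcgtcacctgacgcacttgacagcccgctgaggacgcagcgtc

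GAA and MCOLN1 each hold 2 copies in these 100 bases, and a second copy in LAMP1 begins 2 bases before the start and runs past it. Of these 5 genes, LAMP1 and CTSA rose, GAA fell, and MCOLN1 and ATP6V0D1 were not called. Over all 240 tested genes with TCACGTGA in a window, 18.3% were called higher and 21.2% lower, against 19.8% and 19.3% of the 10578 tested genes whose windows lack it. The FOXO core TGTTTAC, searched on both strands, was found in 1 member, CTSL, which was not called, and in 3.42% of all windows. Its 384 tested carriers were called higher in 25.0% and lower in 20.3% of cases, against 19.6% and 19.3% of the genes without it. A match of letters is a description of the window and no evidence of binding.

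Of the 3 lysosomal membrane genes, 2 rose. LAMP1, a heavily glycosylated protein that lines the lysosomal membrane and whose promoter holds the element shown above, stood at 171, 167 and 165 CPM in control and at 176, 185 and 177 CPM in knockdown. The groups did not overlap, by a narrow gap, and the rise was 1.09-fold (log2 fold change 0.13 ± 0.03 SE, edgeR adjusted p = 0.00680). Without knockdown replicate 2 the edgeR adjusted p was 0.0588. LAMP2, its partner, which also serves chaperone-mediated autophagy, rose from 143, 145 and 144 CPM to 157, 155 and 156 CPM (log2 fold change 0.15 ± 0.03 SE, edgeR adjusted p = 0.00186). The replicates of LAMP2 lay within 3 CPM of each other in both groups. MCOLN1, the calcium channel of the lysosome, had 20.9 to 22.0 CPM in control and 21.9 to 23.6 CPM in knockdown and was not called (log2 fold change 0.10 ± 0.07 SE).

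Among the cathepsins, the lysosomal proteases, CTSA and CTSB rose and CTSH fell. CTSA, the protective protein that stabilises neuraminidase and beta-galactosidase, went from 198, 187 and 188 CPM to 225, 223 and 217 CPM. All knockdown libraries exceeded all controls, a 1.18-fold rise (log2 fold change 0.24 ± 0.03 SE, edgeR adjusted p = 1.20e-05). CTSA lies on chromosome 20 (GRCh37, 44518783 to 44527588, plus strand), and 3.81% of its exon length is shared with PLTP on the other strand, which had 255 to 624 counts and was called higher too (log2 fold change 0.48). CTSB, a cysteine protease, went from 294, 291 and 302 CPM to 311, 319 and 326 CPM (log2 fold change 0.14 ± 0.03 SE, edgeR adjusted p = 0.00184). CTSH, an aminopeptidase, was low and fell further, from 5.40, 5.41 and 4.82 CPM to 3.001, 3.28 and 2.65 CPM. Its groups were well apart, a 1.72-fold decrease on 57 to 68 control and 43 to 56 knockdown counts (log2 fold change -0.78 ± 0.17 SE, edgeR adjusted p = 0.000984).

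The remaining cathepsins did not pass. CTSD, the main aspartic protease, averaged 151 CPM in both groups (log2 fold change 0.03). CTSL and CTSZ had log2 fold changes of 0.09 and 0.05, with edgeR adjusted p-values of 0.240 and 0.194. Together the 6 cathepsins summed to 926 to 950.02 CPM in control and 982 to 1002 CPM in knockdown, without overlap.

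Glycosidases, which remove sugars from glycolipids and glycogen, went down in 2 of 3 cases. GLA, alpha-galactosidase A, the enzyme deficient in Fabry disease, fell from 104, 107 and 99.9 CPM to 87.2, 85.5 and 84.8 CPM. The knockdown libraries all lay lower, a 1.18-fold decrease (log2 fold change -0.24 ± 0.04 SE, edgeR adjusted p = 9.81e-05). GLA lies on chromosome X (GRCh37, 100648261 to 100663000, minus strand), and 8.99% of its exon length is shared with the ribosomal protein gene RPL36A on the other strand, which was also called lower (log2 fold change -0.12). GAA, the acid alpha-glucosidase deficient in Pompe disease and 1 of the genes with 2 CLEAR cores above, fell from 40.2, 43.5 and 40.5 CPM to 33.4, 33.8 and 33.8 CPM. Its knockdown values lay within 0.5 CPM of each other, below all controls, a 1.202-fold decrease (log2 fold change -0.27 ± 0.06 SE, edgeR adjusted p = 0.000774). HEXA, a subunit of beta-hexosaminidase, averaged 46.5 ± 2.86 and 46.3 ± 0.720 CPM (SD, n = 3 each) and was not called.

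In the V-ATPase, the pump that acidifies the lysosome, the accessory subunit ATP6AP1 rose from 108, 105 and 103 CPM to 118, 113 and 112 CPM. The groups did not overlap (log2 fold change 0.14 ± 0.04 SE, edgeR adjusted p = 0.00679). The structural subunits did not follow it. ATP6V0D1 of the membrane sector was lower in every knockdown library, at 63.2 to 65.9 against 70.1 to 73.3 CPM, and lay just outside the threshold (log2 fold change -0.11 ± 0.04 SE, edgeR adjusted p = 0.0551). The cytosolic subunits ATP6V1A and ATP6V1H had log2 fold changes of -0.03 and -0.06.

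The wider pathway was read from lists of other genes that are not members. Over all genes tested, 19.3% were called higher and 19.2% lower, and no list was tested against these shares. Of 26 tested genes of the other autophagy machinery, 8 rose and 4 fell (30.8% and 15.4%). The smallest p-values were those of VMP1, an endoplasmic reticulum scramblase (log2 fold change 0.23), ATG16L2 (0.55) and the PI3P-binding WDR45 (0.23) among the rises, and of PLEKHM1 (-0.30), TMEM41B (-0.20) and the VPS34 regulatory subunit PIK3R4 (-0.16) among the falls. Of 12 other receptors, 4 rose and 4 fell (33.3% each). OPTN, which like SQSTM1 binds ubiquitinated cargo, rose from 43.3 to 61.6 CPM (log2 fold change 0.54 ± 0.05 SE, edgeR adjusted p = 3.89e-08), followed by CCPG1 (0.29) and the ferritin receptor NCOA4 (0.14). TEX264 (-0.31), FKBP8 (-0.17) and RTN3 (-0.11) fell.

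Of 32 tested lysosomal hydrolases outside the members, 11 rose and 5 fell (34.4% and 15.6%, against 19.3% and 19.2% of all genes tested). CTSS had 2 to 12 counts in control and 50 to 84 in knockdown (log2 fold change 2.66 ± 0.31 SE, edgeR adjusted p = 1.54e-06), and ASAH1 (0.26) and ARSB (0.31) followed. SGSH, a heparan sulfatase, fell from 7.10 to 2.41 CPM (log2 fold change -1.51 ± 0.18 SE, edgeR adjusted p = 1.71e-06), and CTSF (-1.91) and NEU1 (-0.28) fell as well. Of 20 other lysosomal membrane, activator and transport genes, 9 rose and 5 fell (45% and 25%). PSAP, the precursor of the saposins (log2 fold change 0.28), LAPTM4A (0.28) and GNPTAB, which makes the mannose 6-phosphate tag of lysosomal enzymes (0.31), rose. NPC2, which hands cholesterol out of the lysosome, fell from 157 to 96.7 CPM (log2 fold change -0.67 ± 0.04 SE, edgeR adjusted p = 6.65e-10), and GM2A fell too (-0.44).

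Of 15 tested other subunits of the V-ATPase, 2 rose and 6 fell (13.3% and 40%, against 19.3% and 19.2% of all genes tested). ATP6V1E1 fell from 65.0 to 43.5 CPM (log2 fold change -0.55 ± 0.05 SE, edgeR adjusted p = 8.49e-08), and ATP6V0B (-0.21) and ATP6V0A1 (-0.25) fell by less. ATP6V0E1 (0.23) and the accessory subunit ATP6AP2 (0.09) rose, so that the accessory subunits ATP6AP1 and ATP6AP2 were both called higher.

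The list for TFEB control at the lysosome also holds GPNMB, a target of MiT/TFE factors, which was not called. Of its 13 tested genes, 2 rose and 3 fell (15.4% and 23.1%, against 19.3% and 19.2% of all genes tested). The folliculin complex genes FNIP1 (log2 fold change 0.40 ± 0.05 SE, edgeR adjusted p = 1.62e-06) and FLCN (0.27) rose, and LAMTOR5 (-0.14), RRAGB (-0.38) and RRAGA (-0.12) fell. In the list of FOXO factors and of FOXO targets outside autophagy, 6 of 17 tested genes rose and 2 fell (35.3% and 11.8%). The factors themselves were not called: FOXO1 averaged 23.4 and 20.7 CPM in control and knockdown, FOXO3 74.3 and 74.9, and FOXO4 8.95 and 10.1. CDKN1B, the cell cycle inhibitor p27, rose from 63.2 to 89.0 CPM, TXNIP from 107 to 135 CPM and SESN3 from 31.5 to 44.7 CPM, with log2 fold changes of 0.53, 0.36 and 0.53. CCNG2 fell from 12.5 to 5.27 CPM and CITED2 from 20.7 to 13.7 CPM (log2 fold changes -1.21 and -0.56). For CDKN1B, TXNIP, SESN3, CCNG2 and CITED2 the edgeR adjusted p was at most 1.22e-05.

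**Figure D5:**
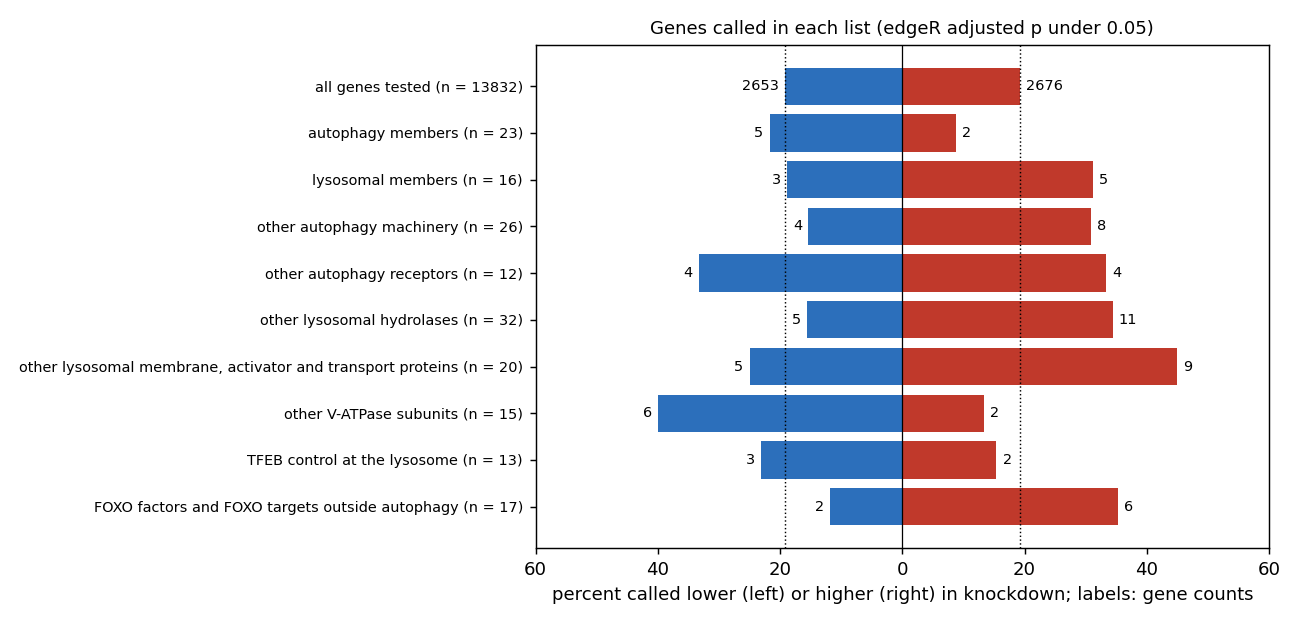
Percent of the tested genes in each list that were called higher (right, red) or lower (left, blue) in IRS2 knockdown by edgeR at an adjusted p of 0.05, with gene counts at the bar ends and dotted lines at the 19.3% and 19.2% of all genes tested. Among lysosomal members 5 were higher and 3 lower, and among the other V-ATPase subunits 2 were higher and 6 lower.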

How the data were processed

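The authors deposited a table of whole-number read counts per gene symbol, 1 column per library, and it was used as deposited. STAR 2.6.1a, Salmon, DESeq2 and the build hg19 are named in the submitters' processing notes, without their roles, and the strand setting and annotation are not given in the sources used here. The kit was NEBNext Ultra II RNA on 1000 ng of total RNA, per the labels' protocols. A second deposited table holds the same counts divided by 1 constant per library and was not used. No column of per-sample values was left unmapped.

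Members, roles and lists were chosen with earlier results of these data known. The labels place 3 libraries in each group. Knockdown was compared with control by edgeR 4.0.16 (R 4.3.3): filterByExpr, TMM factors, quasi-likelihood F test, Benjamini-Hochberg adjustment over 13832 tested genes and a threshold of 0.05. A standard error is the absolute log2 fold change over the square root of F. An exact permutation test of 3 against 3 cannot go below 0.1. The fit was tested on simulated counts. No replicate pair agreed within counting error, with chi-square over degrees of freedom from 1.41 to 2.86. Counting error limits low genes, and amplified reads are not independent molecules.

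Gene positions, exon overlaps and canonical transcript lengths came from GENCODE version 44 lifted to GRCh37 (hg19), with all 39 members matched. Promoter sequences came from RefSeq (GRCh38.p14). Values in every library were given for the 15 called members, for TFEB, TFE3 and MITF, and for IRS2; from every other list the 3 called genes with the smallest p in each direction were named, except 1 that is not reported here. BNIP3 and CTSH were singled out by size, and ATG101 as a further subunit of the ULK1 complex, after their values were seen. Alternatives were DESeq2 size factors, library size alone, dropping the filter, a stricter filter (gene mean 50 counts or more), DESeq2 1.42.0 with its Wald test, the replicate number as a block, a spline correction for transcript length and GC content with and without that block, a threshold of 0.01, and leaving out each library.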

Additional observations from a re-analysis of the deposited data

How the results depend on the processing

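Of the 15 called members, 11 kept their direction and call in every one of the 14 other fits that gave them a value. BNIP3 had no value under the stricter filter (gene mean 50 counts or more). The exceptions were WIPI2, MAP1LC3B, BNIP3L and LAMP1. The number of autophagy members called higher was 2, and became 1 with library size alone, the stricter filter, DESeq2's Wald test, the replicate block or a threshold of 0.01, and 1 to 2 without single replicates. The number called lower was 5, and became 6 with library size alone, 4 without the filter, under the stricter filter or with the replicate block, 3 with the Wald test of DESeq2 or a threshold of 0.01, and 3 to 5 without single replicates. Over all genes 3714 to 5820 were called. With library size alone, 2206 genes were higher and 3198 lower, against 2676 and 2653.

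The replicate numbers come from the titles, and same-numbered libraries deviated together with correlations of 0.0447, -0.0112 and -0.0981, so they share only a number. With the replicate block 4862 genes were called, and WIPI2 (adjusted p 0.0520) and MAP1LC3B (0.0784) lost their calls. No other member changed its call with the block.

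Signs turned only in members that were not called, at log2 fold changes near 0. ATG5 was 0.00190 with DESeq2 size factors, 0.0114 without the filter, 0.00174 with the Wald test, 0.00185 with the replicate block, and 0.00633 and 0.00909 with the length and GC correction without and with the block. RB1CC1 was 0.00469 without the filter, and 0.0193 and 0.0189 with those corrections. ATG16L1 was -0.0180 with library size alone, -0.000327 under the stricter filter, and -0.00418 and -0.00821 with the corrections. ATG7 (-0.00449), GABARAP (-0.00426) and HEXA (-0.00749) turned with library size alone. Without single replicates, ATG5 ranged from -0.0525 to 0.0434, ATG7 from -0.0304 to 0.0849, RB1CC1 from -0.0366 to 0.0365, GABARAP from -0.00629 to 0.0644, HEXA from -0.0115 to 0.0803, ATG14 from -0.124 to 0.0291, WIPI1 from -0.0313 to 0.101, ATG16L1 from -0.0451 to 0.0612 and ATP6V1A from -0.0735 to 0.00434. The causes were not tested.

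ATP6V0D1 passed the threshold in 4 alternatives (library size alone, adjusted p 0.0159; the stricter filter, 0.0306; the length and GC correction, 0.0108, and 0.0170 with the block). BECN1 passed with library size alone (0.0485). On the log2 scale, the knockdown over control ratio of summed CPM was 0.116 for autophagy genes, -0.0672 for them without SQSTM1 and 0.0417 for lysosomal genes, and 0.146, -0.0372 and 0.0717 with TMM-scaled CPM, chosen after seeing the data.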
